A study of Rattus norvegicus with 9 samples.

Results

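O4 cells were compared with NG2-only cells, 2 of the 3 populations sorted from cultures of oligodendrocyte progenitors of newborn rats. The members are 6 arrays of 9 in the series, chosen by title: O4-I, O4-II and O4-III against NG2-I, NG2-II and NG2-III. The comparison is described over 8965 well-detected genes of 12167 measured, that is genes with a mean deposited intensity over 0.5 on these 6 arrays and a value on each of them. Per the labels, the O4 cells carried the O4 antigen and were negative for NG2, and the NG2 cells carried NG2 alone. The 3 arrays of NG2/A2B5 cells, positive for both NG2 and A2B5, entered the models only to share the estimate of the spread. All the cells were labelled as oligodendrocyte progenitors, no group received an agent, and no strain or transgene is named. The series text speaks of 3 cultures, and arrays with the same numeral deviated together, so the arrays were compared both by numeral and without pairing. No label says which culture a numeral stands for, so the p-values speak only of the variation among these arrays, which may be technical in part.

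Oligodendrocyte progenitors divide, migrate and then mature into the cells that wrap axons with myelin. NG2, the proteoglycan encoded by Cspg4, marks the dividing progenitor. The O4 antibody binds sulfatide, a sphingolipid, and its binding appears as the cell leaves the progenitor stage and before myelin proteins accumulate. The comparison therefore sets a population that is later in the lineage by its surface antigens against an earlier one.

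Few genes separated the populations, and the number depended on how the arrays were compared. With arrays paired by numeral, 75 genes were higher and 49 lower in O4 cells at an adjusted p under 0.05 (limma with the numeral as a block, Benjamini-Hochberg adjustment over 12165 genes), which is 1.02% of the genes tested (0.617% higher and 0.403% lower). Without pairing, limma called 0 genes. The lowest adjusted p there was 0.182, and 1003 genes had an unadjusted p under 0.05. The unpaired comparison called 1 gene with plain variance estimates and 2 with the numeral as a random block. The paired count also turned on the variance estimate. Plain estimates, with no trend in intensity and no robust prior, called 0 genes, the nearest having an adjusted p of 0.0878, although the unadjusted p was under 0.05 for 1597. Without 1 array the total called ran from 5 genes (without O4-II, 4 of them among the 124) to 61 (without NG2-II, 34 of them among the 124). Without all arrays of numeral II it was 2, of which 1 was among the 124. All 124 genes kept their direction in each of these 6 fits without 1 array, and 3 of them, Fxyd1, Mob1b and Pcsk4, were called in all 6. None of the paired calls below was made by the unpaired fit.

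**Figure D1:**
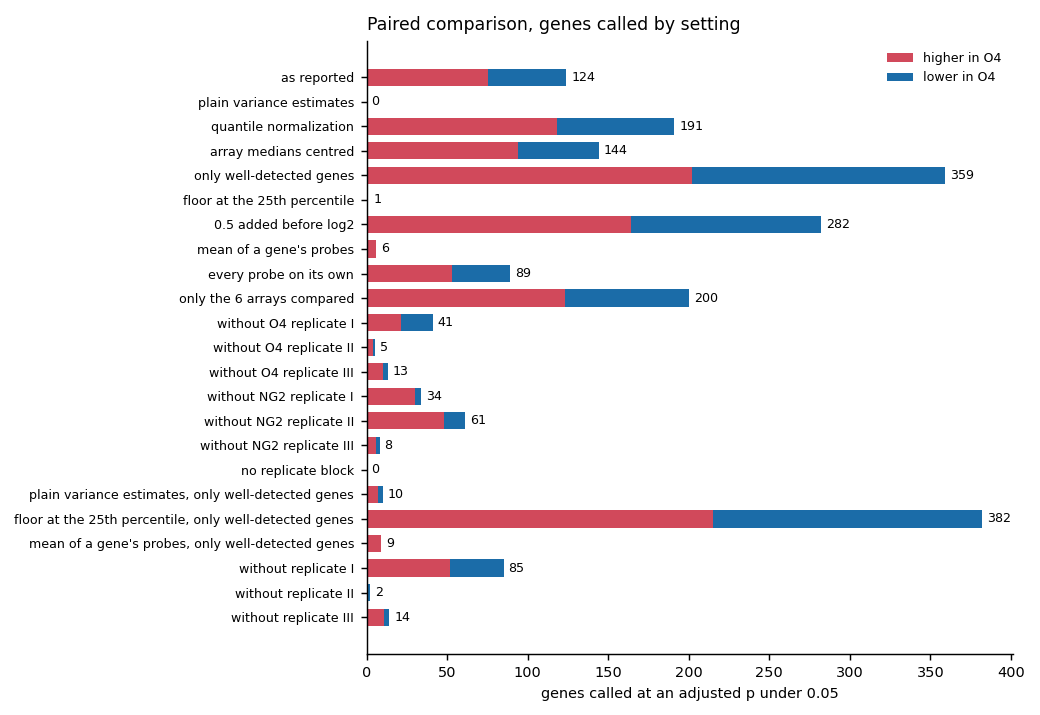
Number of genes called in the paired comparison (horizontal axis) under each setting (vertical axis), with genes higher in O4 in red and lower in blue. The reported fit calls 124, plain variance estimates and the fit with no replicate block call 0, and restricting the test to well-detected genes calls 359.

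The typical difference was small. Over the well-detected genes 4482 were higher (50%) and 4483 lower in O4 cells, with a median log2 difference of -0.0001, and 5% of genes lay under -0.50 and 5% over 0.51. The direction was the same in all 3 pairs for 1912 genes that were higher (21.3%) and 1872 that were lower (20.9%). It was over 2-fold in every pair for 11 higher (0.123%) and 2 lower genes (0.0223%). The O4 and NG2 arrays did not overlap for 675 higher (7.53%) and 686 lower genes (7.65%). The median difference of all well-detected genes was 0.03 in pair I, -0.11 in pair II and 0.09 in pair III, so a list in which most genes were lower in pair II shared that with the whole array. Of the called genes, 72 higher and 48 lower were well detected (1.34% of these genes), and 20 of the higher and 5 of the lower differed by more than 2-fold. The median differences of the 72 and the 48 were 0.78 and -0.76. Some of the genes over 2-fold had a mean under the log2 of 0.5 in 1 population, as given below. The other 4 called genes, Chac1, Rasgef1c, Wdr54 and Gpr155, were below the level for a well-detected gene or lacked a value on 1 array.

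**Figure D2:**
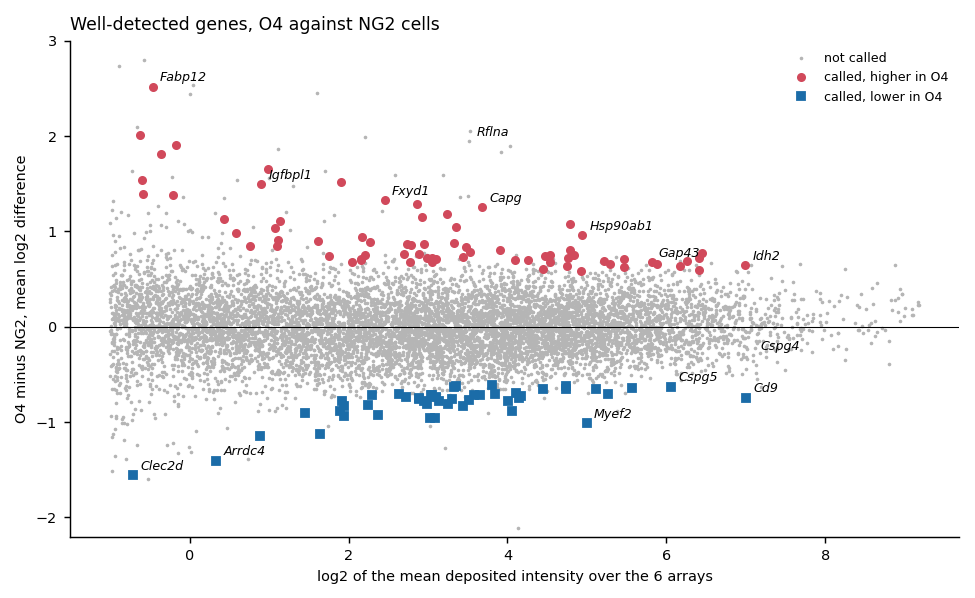
Mean log2 difference, O4 minus NG2 (vertical axis), against the log2 of the mean deposited intensity over the 6 arrays (horizontal axis) for the well-detected genes; grey points are not called, red circles are called and higher in O4, and blue squares are called and lower. Called genes span the range of intensity, from Fabp12 and Clec2d among the dimmest to Idh2 and Cd9 among the brightest. The vertical axis leaves out 3 genes, Sertm1, Bmp4 and Kcnd2.

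Among the genes called higher, Fxyd1 had the lowest adjusted p. It encodes phospholemman, a small membrane protein that regulates the sodium pump. Its log2 intensity was 3.34, 2.53 and 2.94 on the O4 arrays I, II and III, and 2.05, 1.27 and 1.51 on the NG2 arrays. Each O4 array lay above every NG2 array, and the 3 pairs differed by 1.29, 1.27 and 1.43. The mean difference was 1.33 ± 0.15 (SE of the paired limma fit), a 2.51-fold higher intensity. The adjusted p was 0.00148 in the paired limma fit and 0.426 in the unpaired one. The pump and FXYD list held 9 well-detected genes, of which 6 were higher, 3 lower and Fxyd1 alone was called.

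Igfbpl1, a secreted protein related to the insulin-like growth factor binding proteins, was called at 1.50 with little spread within each population. The O4 arrays read 1.29, 1.55 and 1.54 and the NG2 arrays -0.15, -0.03 and 0.07. The populations did not overlap and the arrays within each population lay close together. The SE of the difference was 0.22, and the fold was 2.82, with an adjusted p of 0.00666 paired and 0.182 unpaired in limma, which Igfbpl1 and Myef2 shared as the lowest of the unpaired fit. In the list of insulin-like growth factor genes, 5 of 11 well-detected members were higher and 6 lower. Igfbp5, a binding protein of these growth factors, differed by 1.07 but by 2.22 in pair I against 0.25 in pair III, and was not called (adjusted p 0.178, limma paired). Its mean log2 intensity on the NG2 arrays was -1.31, under the log2 of 0.5.

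Mob1b and Pcsk4 stayed called whichever single array was left out. Mob1b, an adaptor of the kinases of the Hippo pathway, read 2.16, 2.79 and 2.36 on the O4 arrays and 0.97, 1.53 and 0.25 on the NG2 arrays, a difference of 1.52 ± 0.19 (SE). Pcsk4, a proprotein convertase best known from germ cells, read 3.65, 3.10 and 3.38 against 2.34, 2.14 and 2.20, a difference of 1.15 ± 0.15 (SE). Both had an adjusted p of 0.00417 in the paired limma fit. In both genes every O4 array lay above every NG2 array.

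The largest called differences belonged to dim genes. Fabp12, a fatty acid binding protein, read 0.0017, 0.44 and 0.33 on the O4 arrays and -1.86, -1.42 and -3.51 on the NG2 arrays. The NG2-III value set much of its difference of 2.52, which ranged from 1.90 to 2.96 when single arrays were left out. Cfap126, a protein of motile cilia, differed by 2.01, Emid1, a secreted matrix protein, by 1.91 and Nnmt, which methylates nicotinamide, by 1.81. Their pairs were uneven: Cfap126 differed by 2.77 and 2.53 in pairs I and II and by 0.74 in pair III, and Emid1 by 3.07 in pair II against 1.30 and 1.35. The other leading higher genes were Plcd3 (1.66), a phospholipase C, Mical1 (1.54), an oxidase that disassembles actin filaments, Tmf1 (1.40), a Golgi protein, Albfm1 (1.38), Abhd1 (1.28), Capg (1.26), an actin-capping protein, and Tceal3 (1.18). All of these were well-detected genes with the same sign in the 3 pairs. Their adjusted p values in the paired limma fit ran from 0.00639 for Capg to 0.0478 for Mical1. However, Fabp12, Cfap126, Emid1, Nnmt, Mical1, Tmf1 and Albfm1 passed the level of 0.5 only through their O4 arrays. Their mean log2 intensities on the NG2 arrays were -2.26, -2.09, -1.49, -1.61, -1.61, -1.46 and -1.11, under the log2 of 0.5. Their differences are thus set against low NG2 values.

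Capg shows what pairing by numeral added. Its O4 arrays read 4.85, 3.18 and 3.84 and its NG2 arrays 4.01, 1.68 and 2.41. The populations overlapped, since NG2-I lay above both O4-II and O4-III, yet each O4 array exceeded the NG2 array of its own numeral, by 0.84, 1.50 and 1.43. The adjusted p in limma was 0.00639 paired and 0.645 unpaired.

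Myef2, called lower, encodes a repressor of the myelin basic protein gene. It read 4.39, 4.42 and 4.41 on the O4 arrays and 5.43, 5.51 and 5.31 on the NG2 arrays. The 3 O4 values lay within a few hundredths of each other and every NG2 value lay above them. The difference was -1.01 ± 0.13 (SE of the paired limma fit), 2.01-fold lower, with an adjusted p of 0.00417 paired and 0.182 unpaired in limma. A second well-detected but dimmer probe of Myef2 differed by -0.15, so the probes agreed in sign and not in size. Myef2 belonged to a list of genes known to restrain myelination, in which 11 of 23 well-detected members were higher and 12 lower, and it was the sole member called. Smarca4, a chromatin remodelling ATPase in the same list, differed by -0.48 (adjusted p 0.0782, limma paired).

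The larger lower differences were those of Clec2d, a lectin-like ligand (-1.56), Arrdc4, an alpha-arrestin (-1.40), RT1-S3, a class I histocompatibility gene (-1.14), and Nln, the peptidase neurolysin (-1.12). Clec2d passed the level for a well-detected gene only through its NG2 arrays, and its O4 arrays read -2.03, -1.77 and -1.45. Arrdc4 read -0.69, -1.85 and 0.47 on the O4 arrays and 0.74, 0.01 and 1.39 on the NG2 arrays. O4-III lay above NG2-II, so the populations overlapped, but each pair differed in the same direction, by -1.43, -1.86 and -0.92 (adjusted p 0.0155 paired, limma). A dimmer probe of Arrdc4 differed by -0.60, lower in each pair. Its dimmest probe differed by 2.49, with 9.20 in pair I but -0.50 in pair II and -1.22 in pair III. The mean of the 3 probes of Arrdc4 differed by 0.16. RT1-S3 belongs to a family of near-identical genes, so its probe may read related transcripts. Txnip, another alpha-arrestin, went the other way and was called higher: its O4 arrays read 3.88, 2.11 and 4.21 and its NG2 arrays 3.09, 0.85 and 3.63. The difference was 0.88 ± 0.17 (SE, adjusted p 0.0307, limma paired), with values that followed the numeral more than the population. Txnip, Hsp90ab1, Thop1, Idh2, Bcl11a, Ogt, Ripk1, Trpm7, Rbfox1, Svil and Fscn2 were named after their values were seen.

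The remaining lower leaders were Eif4e3 (-0.96), a cap-binding translation factor, Kmt2e (-0.96), a chromatin protein, Slc38a6 (-0.93), Nfatc2 (-0.92), a calcium-dependent transcription factor, Atg7 (-0.91), an autophagy enzyme, Rbm25 (-0.89), a splicing regulator, Slc25a23 (-0.88), Slc35a5 (-0.83), Neto1 (-0.83) and Slc20a1 (-0.83). Kmt2e read 2.36, 2.27 and 2.83 on the O4 arrays and 3.44, 2.96 and 3.94 on the NG2 arrays, with no overlap. Its 2 other well-detected probes differed by -0.26 and -0.23. Rbm25 read 1.52, 1.22 and 1.39 against 2.30, 2.17 and 2.32, and its other well-detected probe differed by -0.83, close to the first. Over the 29 called genes with another well-detected probe, 24 of 31 such probes had the same sign and 8 of these had over 0.5 of the size. Slc25a23 (-0.02) and Nfatc2 (-0.05) were among those whose other probe showed nearly no difference. The other probe was opposite in Nhlrc2 (0.54), Slc39a14 (0.41), Cacnb4 (0.31), Thop1 (-0.19), Acbd4 (-0.17), Ccdc112 (0.05) and Ankrd50 (-0.04).

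**Figure D3:**
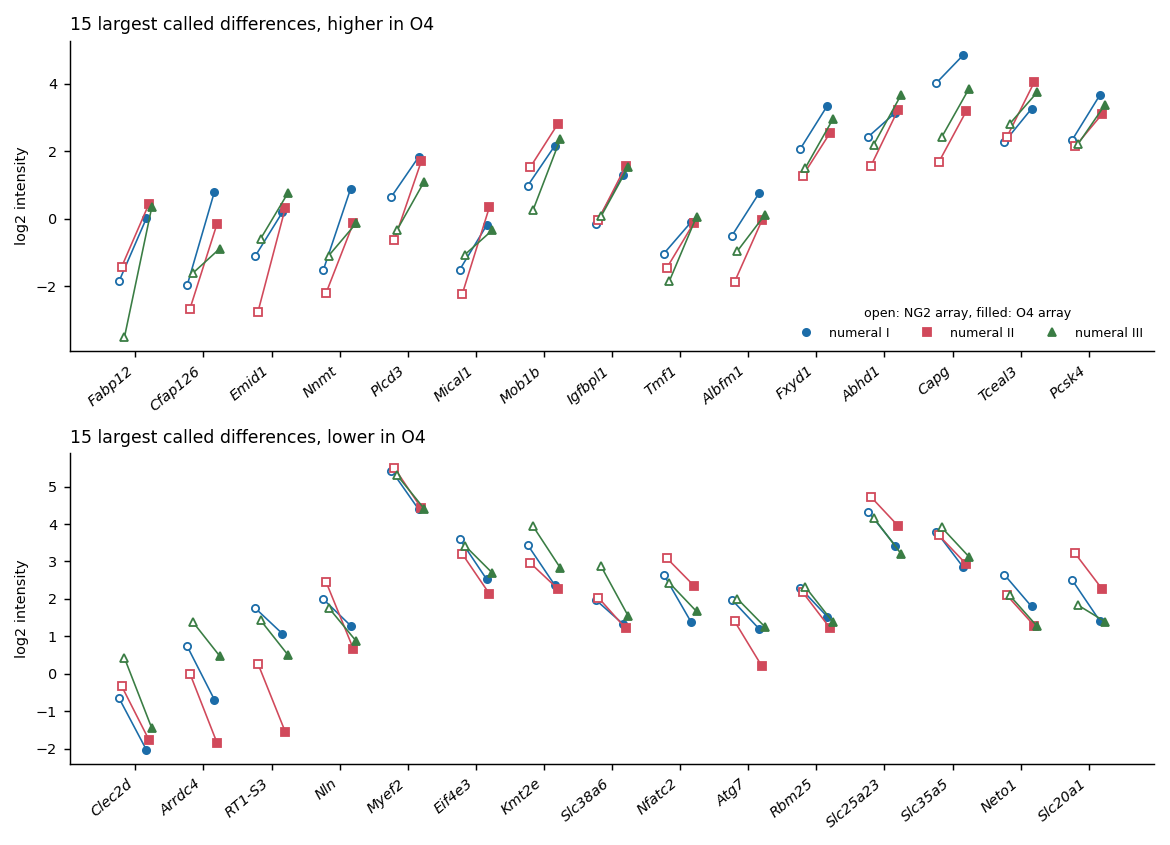
Log2 intensity (vertical axis) of the 15 largest called differences in each direction (horizontal axis) on each array; open symbols are NG2 arrays, filled symbols O4 arrays, and a line joins the arrays of 1 numeral. Every line rises in the upper panel and falls in the lower one, while in Capg, Arrdc4, RT1-S3 and Slc20a1 the open and filled symbols overlap.

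The promoters of 4 of these genes are shown because the genes were among the leading calls (Fxyd1 and Arrdc4) or are lineage genes that were called (Myef2 and Cd9). Each sequence is the 250 bases before the annotated start, 5′ to 3′ on the strand of the gene, from RefSeq on GRCr8. The windows are chr1:95418581-95418830 (minus strand) for Fxyd1, chr3:132827524-132827773 (minus strand) for Myef2, chr4:159975359-159975608 (minus strand) for Cd9 and chr1:131793426-131793675 (minus strand) for Arrdc4. Capitals mark the GC box GGGCGG on either strand and the E-box CACGTG.
Fxyd1: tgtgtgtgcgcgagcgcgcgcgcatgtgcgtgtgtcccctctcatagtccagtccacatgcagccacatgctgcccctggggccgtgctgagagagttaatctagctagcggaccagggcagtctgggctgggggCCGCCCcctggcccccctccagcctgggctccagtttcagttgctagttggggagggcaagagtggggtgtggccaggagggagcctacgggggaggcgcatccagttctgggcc
Myef2: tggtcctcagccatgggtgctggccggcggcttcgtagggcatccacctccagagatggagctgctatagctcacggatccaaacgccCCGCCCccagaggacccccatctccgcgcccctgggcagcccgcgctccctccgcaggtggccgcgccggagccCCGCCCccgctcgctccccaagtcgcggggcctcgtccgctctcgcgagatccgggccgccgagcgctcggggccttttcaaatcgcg
Cd9: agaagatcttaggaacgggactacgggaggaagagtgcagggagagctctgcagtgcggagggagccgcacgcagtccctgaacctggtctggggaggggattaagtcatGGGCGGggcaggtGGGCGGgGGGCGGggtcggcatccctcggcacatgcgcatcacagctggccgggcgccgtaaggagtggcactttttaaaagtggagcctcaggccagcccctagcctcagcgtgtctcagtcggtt
Arrdc4: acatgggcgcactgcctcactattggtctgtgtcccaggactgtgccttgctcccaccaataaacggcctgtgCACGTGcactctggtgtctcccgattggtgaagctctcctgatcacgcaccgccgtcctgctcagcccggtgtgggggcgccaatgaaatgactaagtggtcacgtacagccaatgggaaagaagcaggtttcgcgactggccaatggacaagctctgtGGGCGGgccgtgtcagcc
The windows held 1 GC box in Fxyd1, 2 in Myef2, 3 in Cd9 and 1 in Arrdc4, and 1 E-box in Arrdc4. Promoters were found for 57 of the 72 well-detected genes called higher and 37 of the 48 called lower. GGGCGG, searched on both strands, was in 63.2% of the former and 70.3% of the latter, against 59.0% of 7477 promoters of well-detected genes and 32.4% of all 27457 promoters. CACGTG, which reads the same on both strands, was in 6 of 57 (10.5%) and 8 of 37 (21.6%), against 8.29% and 5.79%. The 8 motifs searched on both strands were the TATA box TATAAA, the CCAAT box, the GC box GGGCGG, the E-box CACGTG, the cyclic AMP response element core TGACGT, the heat shock element GAANNTTC, the amino acid response element TGATGNAA and the Sox and Tcf motif ACAAAG. Matches of different motifs were allowed to overlap. For higher, lower and all well-detected genes, TATAAA was in 5.26%, 2.7% and 6.85% and CCAAT in 40.4%, 35.1% and 36%. TGACGT was in 15.8%, 8.11% and 10.7% and GAANNTTC in 5.26%, 2.7% and 4.43%. TGATGNAA was in 5.26%, 0% and 1.81% and ACAAAG in 10.5%, 5.41% and 11.5%. No share was tested, and a match is a description of the letters in the window. The median GC content was 60.0% in the promoters of higher genes and 62.0% in those of lower genes, beside 60.4% for well-detected genes.

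None of the transcripts behind the sorting antigens was called in this fit. Cspg4, which encodes NG2 itself, read 6.96, 6.53 and 7.27 on the O4 arrays and 7.08, 7.19 and 7.38 on the NG2 arrays. The populations overlapped, and the difference was -0.30 (95% interval -0.63 to 0.03, adjusted p 0.362, limma paired). Cspg4 was thus bright in cells sorted as negative for NG2, on average 1.23-fold lower than in the NG2 cells. The pairs differed by -0.12, -0.66 and -0.11. Ugt8, which makes the galactolipid from which sulfatide is formed, read 1.82, 0.96 and 2.10 against 2.23, 1.53 and 2.37, and so was lower in the O4 cells in each pair, by -0.41 on average (adjusted p 0.304). Of the 6 genes of this group, 5 were lower and 1 higher, with none called. In all 3 pairs 4 were lower (66.7%) and 1 higher (16.7%), beside 20.9% and 21.3% of all well-detected genes. The unadjusted p was under 0.05 for 3 of the lower genes (limma paired), beside 914 lower genes of all 8965. The higher gene was B4galnt1, a ganglioside enzyme, at 0.31. St3gal5 (-0.49) and St8sia3 (-0.47) add sialic acid to gangliosides, the class of lipid to which the A2B5 antigens belong, and St8sia1 differed by -0.02. The O4 and NG2 arrays of St3gal5 did not overlap, as for 7.65% of all well-detected genes that were lower without overlap.

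Genes of the progenitor stage split by sign. Of 19 well-detected progenitor genes 9 were higher and 10 lower, with a median of -0.06 beside -0.0001 for all genes. The sole call was Cspg5, the neuroglycan C proteoglycan, at -0.63 ± 0.14 (SE, adjusted p 0.0406, limma paired). It read 5.35, 5.60 and 6.11 on the O4 arrays and 6.10, 6.25 and 6.59 on the NG2 arrays, with O4-III just above NG2-I. Vcan, the proteoglycan versican, differed by -0.44 in the same direction in each pair and did not pass (adjusted p 0.108). Brain proteoglycans and tenascins as a list had 11 higher and 9 lower of 20, and Tnr, the glial glycoprotein tenascin-R, differed by 0.63 (adjusted p 0.0931).

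None of the 14 well-detected transcription factors of the lineage was called, in a comparison that called 1.34% of all well-detected genes. Sox10 and Olig1, which define the lineage, differed by -0.06 and 0.09. Tcf4, a partner of Olig proteins, differed by 0.44 and Sox2, a factor of immature cells, by -0.44, each with 1 direction in the 3 pairs (adjusted p 0.125 and 0.178, limma paired). A dimmer well-detected probe of Sox2 differed by 1.41, opposite in sign. Myrf, the activator of myelin genes, read 4.14, 3.10 and 4.64 against 3.71, 2.33 and 4.61. That is a difference of 0.41 with 0.77 in pair II and 0.03 in pair III, and it was not called (adjusted p 0.248).

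The premyelinating genes, which mark the stage nearest to the O4 antigen, were mostly lower in O4 cells: 6 higher and 13 lower of 19, with a median of -0.17. By pair the median was -0.07, -0.16 and -0.03 in pairs I, II and III, beside 0.03, -0.11 and 0.09 for all well-detected genes. The called member was Cd9, a tetraspanin of maturing oligodendrocytes. It read 6.66, 6.22 and 6.73 on the O4 arrays and 7.31, 6.72 and 7.81 on the NG2 arrays. O4-III lay a hundredth above NG2-II, so the populations touched, while the 3 pairs differed by -0.66, -0.49 and -1.08. The mean was -0.74 ± 0.15 (SE, adjusted p 0.0307, limma paired). Rras2 (-0.49), a small GTPase, and Tcf7l2 (-0.36), a transcription factor of newly formed oligodendrocytes, had the same sign in each pair and did not pass. Tmem163, a zinc transporter, stood on the other side at 0.53 (adjusted p 0.102). Bcas1, a bright marker of the same stage, differed by 0.05. Bmp4, a secreted growth factor in this list, had the largest mean difference, -2.79 (adjusted p 0.591, limma paired). It read -0.76, -10.97 and 0.40 on the O4 arrays and -0.77, -1.9988 and -0.18 on the NG2 arrays. The O4-II value was the floor of that array, and without O4-II the difference was 0.0321.

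Myelin genes leaned the other way without a call. Of 24 well-detected members, 15 were higher and 9 lower, with a median of 0.12; the median was -0.12 in pair I, 0.02 in pair II and 0.19 in pair III. Mal (0.36), Fa2h (0.39), Mag (0.27) and Cnp (0.19), which encode a myelin proteolipid, a lipid hydroxylase, an adhesion protein and a phosphodiesterase, had adjusted p values between 0.282 and 0.6 (limma paired). The defining transcripts Mbp, Mog, Opalin and Aspa were measured but under the level for a well-detected gene in these cells.

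**Figure D4:**
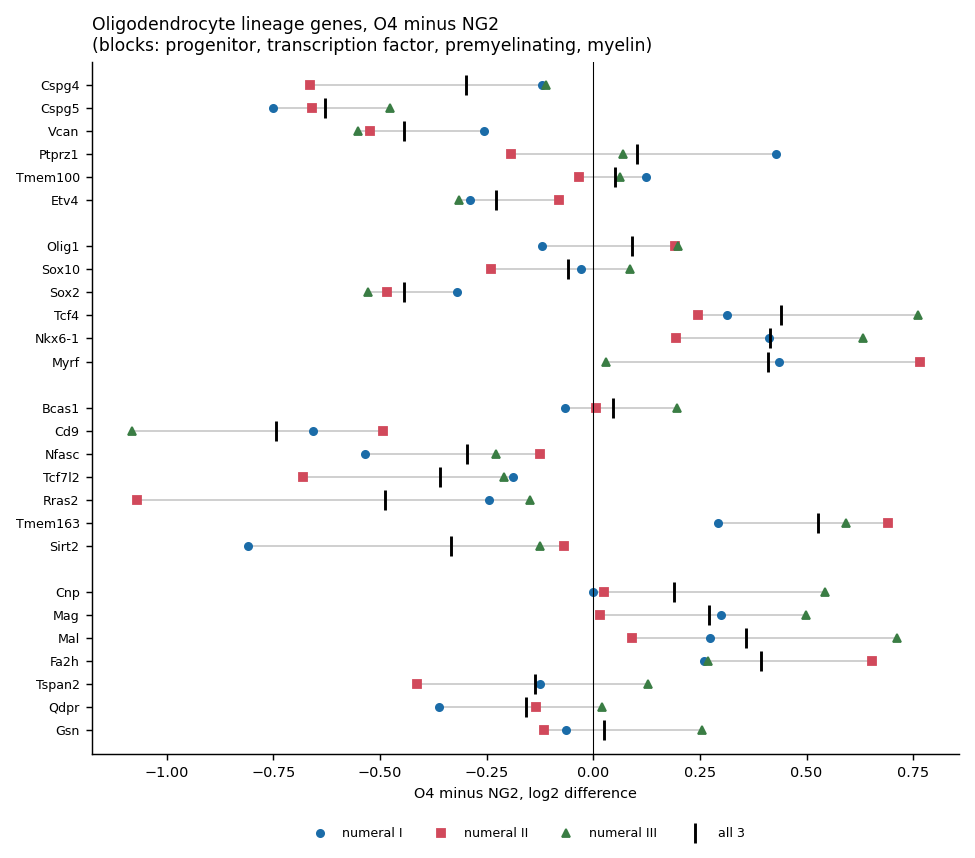
Log2 difference, O4 minus NG2 (horizontal axis), of 26 lineage genes (vertical axis), with 1 symbol per numeral and a black bar at the mean of the 3. Cspg5 and Cd9, both called, lie wholly left of 0, while Mal and Fa2h lie right of 0 and were not called.

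Lipid synthesis genes were lower more often than higher, with no call. Cholesterol synthesis had 6 higher and 16 lower of 22 (median -0.10), and fatty acid synthesis 2 higher and 11 lower of 13 (median -0.19). Elovl6, an elongase, read 2.95, 2.49 and 2.74 against 3.43, 3.68 and 3.18, with no overlap and a difference of -0.70 (adjusted p 0.066, limma paired). Scd2, a desaturase of the brain, read 6.58, 6.56 and 6.49 against 7.14, 7.05 and 6.97, again with no overlap, at -0.51 (adjusted p 0.15). The fatty acid list was lower chiefly in pair II, at a median of -0.50, against 0.0042 in pair I and -0.01 in pair III. The cholesterol list was too, at -0.28 in pair II against -0.02 in pair I and 0.03 in pair III. In the cholesterol list Mvd (0.48) and Cyp51 (-0.38) went opposite ways.

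Cell cycle genes gave no common direction. Of 35 well-detected members, 14 were higher and 21 lower, and their median was 0.16 in pair I, -0.34 in pair II and 0.11 in pair III. Mcm5, a helicase subunit of DNA replication, differed by -0.50, and Ube2c, a mitotic ubiquitin-conjugating enzyme, by 0.65. Both missed the threshold at the same adjusted p of 0.0782 (limma paired).

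Refilin A, encoded by Rflna, binds filamin and organises actin bundles. It read 4.37, 3.92 and 4.09 on the O4 arrays and 3.15, 1.13 and 2.26 on the NG2 arrays. Each O4 array lay above every NG2 array, and the pairs differed by 1.21, 2.80 and 1.83. The difference of 1.95 (95% interval 0.97 to 2.92) lay between those of Cfap126 and Emid1, but its adjusted p was 0.0805 in the paired limma fit and it was not called. Rflnb, the other refilin, differed by less than 0.01 in size, and the filamins Flna and Flnc by 0.19 and 0.08.

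Actin genes beyond the refilins included single calls. Gap43, a growth-cone protein, read 5.9993, 5.84 and 6.40 on the O4 arrays and 5.49, 4.84 and 5.87 on the NG2 arrays, with NG2-III above O4-II. Its difference was 0.68 ± 0.14 (SE, adjusted p 0.0344, limma paired), and a second probe differed by 0.29. Gap43 was the sole call of 31 filopodia and actin regulators, of which 17 were higher and 14 lower. Its relative Basp1 differed by 0.47 (adjusted p 0.0848). Svil, which encodes supervillin (0.76), and Fscn2, a fascin (1.11), were called among other actin-binding genes. Myh9, a non-muscle myosin, differed by -0.59 and Actn1, an actinin, by 0.53, and neither was called.

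The list of kinesins and tubulins had 33 higher and 23 lower of 56. Its call was Tppp3, a tubulin-polymerising protein, which read 4.12, 3.38 and 3.65 against 3.35, 1.89 and 2.77, with a difference of 1.05 ± 0.17 (SE, adjusted p 0.013, limma paired). No NG2 array reached the lowest O4 array.

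Most members of the splicing and chromatin lists had a lower mean in O4 cells, beside 50% of all well-detected genes on either side of 0; no test was made of this. Of 84 splicing factors and hnRNPs 31 were higher and 53 lower, and 24 were lower in all 3 pairs against 9 higher. Their median was -0.03 in pair I, -0.23 in pair II and 0.05 in pair III. The calls went both ways: Rbm25 fell and Snrpn, a spliceosomal protein of an imprinted locus, rose by 0.77. Snrpn read 6.66, 6.95 and 6.72 against 5.92, 6.32 and 5.78, and its other probe differed by 0.27. Of 78 chromatin modifiers, 24 were higher and 54 lower, 29 lower in all 3 pairs and 8 higher, with a median of -0.16 and medians of -0.11, -0.21 and -0.15 by pair. Kmt2e was their sole call. Kdm2a, a histone demethylase, differed by -0.65 and Setd3, a methyltransferase, by -0.56, and neither passed (adjusted p 0.0633 and 0.0782).

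Proteasome and ribosome genes lay on the other side. Proteasome subunits had 27 higher and 13 lower of 40 with a median of 0.20, and none called. Their median was 0.21 in pair I, -0.06 in pair II and 0.31 in pair III, and 0.12 after quantile normalization. Psmd13, a lid subunit, differed by 0.59 (adjusted p 0.0531, limma paired). Cytosolic ribosomal proteins had 25 higher and 15 lower of 40. Their median of 0.14 was 0.01 after quantile normalization. Pair III carried most of it, with a median of 0.35 against 0.0057 and -0.02. Mitochondrial ribosomal proteins had 37 higher and 21 lower of 58, with Mrpl28 called at 0.72. Their median of 0.09 was 0.05 after quantile normalization, and by pair 0.14, -0.15 and 0.23. The respiratory chain had 42 higher and 24 lower of 66 with none called. Its median of 0.04 was 0.02 after quantile normalization, and by pair 0.02, -0.16 and 0.31.

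Solute carriers, membrane transporters of small molecules, gave 5 calls, all lower, of 200 well-detected members, beside 0.535% of all well-detected genes called lower. The share was not tested against that of other genes. Over the list 89 were higher and 111 lower, at a median of -0.03. The 5 were Slc38a6, an amino acid transporter, Slc25a23, a mitochondrial carrier for ATP and magnesium, Slc35a5, a nucleotide sugar transporter, Slc20a1, a phosphate transporter, and Slc39a14, a zinc and manganese importer (-0.76). Slc20a1 read 1.42, 2.26 and 1.39 against 2.49, 3.21 and 1.84, so O4-II exceeded NG2-III, while each pair was lower in O4. Among ion channels, Cacnb4, a calcium channel subunit, was called at -0.78, and Scn3a, a sodium channel, differed by -0.67 (adjusted p 0.0652, limma paired).

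Single genes of other groups were called too. Hsp90ab1, the constitutive cytosolic chaperone, read 5.47, 5.39 and 5.16 on the O4 arrays and 4.46, 4.51 and 4.16 on the NG2 arrays. There was no overlap, and the pairs differed by 1.01, 0.87 and 1.0002 (0.96 ± 0.14 SE, adjusted p 0.00573, limma paired). It was not a member of the chaperone list, in which 27 of 55 genes were higher and 28 lower with none called. In that list Dnajc1 (1.17) and Dnajb1 (0.65), J-domain proteins that work with Hsp70 chaperones, had adjusted p values of 0.0528 and 0.0726. Thop1, a peptidase related to neurolysin, rose by 1.07, whereas neurolysin (Nln) fell. Ctsd, a lysosomal protease, rose by 0.66, Idh2, a mitochondrial dehydrogenase, by 0.64, Aldoc, a glycolytic aldolase, by 0.68 and Bcl11a, a transcription factor of neural cells, by 0.70. Ogt, the enzyme that adds N-acetylglucosamine to proteins, fell by 0.70, Ripk1, a kinase of cell death signalling, by 0.81, Trpm7, a channel kinase, by 0.66, Rbfox1, a splicing factor, by 0.78, Rab21, an endosomal GTPase, by 0.71 and Plxna3, a semaphorin receptor, by 0.74. Trpm7 differed by -0.65, -0.67 and -0.65 in the 3 pairs.

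**Figure D5:**
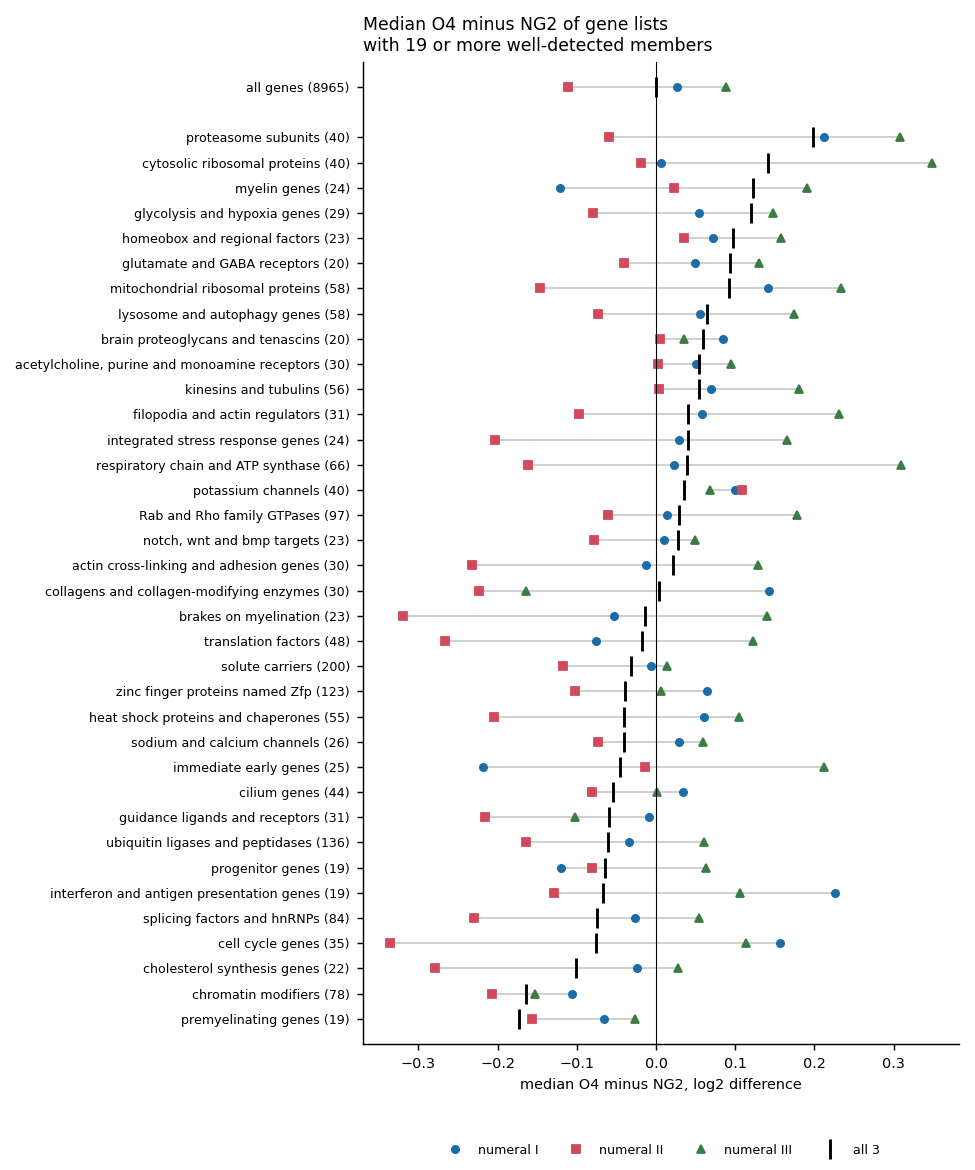
Median log2 difference, O4 minus NG2 (horizontal axis), of 36 gene lists with 19 or more well-detected members (number in brackets, vertical axis), with 1 symbol per numeral and a black bar for the mean of the 3 pairs per gene. Chromatin modifiers, guidance ligands and receptors, and premyelinating genes are below 0 in every pair, and most lists, like all genes, are lowest in pair II.

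Markers of other cell types gave 3 calls, beside 1.34% of all well-detected genes called, and their share was not tested against that. Of 17 measured microglial markers 3 were well detected, with Aif1, Cx3cr1, Csf1r and Tyrobp among the dim ones, and their summed intensity was 10.1 to 14.8 on the O4 arrays and 10.3 to 11.5 on the NG2 arrays. Of 16 astrocyte markers 8 were well detected and Gfap was dim, with sums of 149.5 to 312.5 against 184.0 to 224.6. Of these 8 astrocyte markers 4 were higher and 4 lower, and the list includes Aldoc, which was called higher. The neuron list had 10 of 16 well detected, 7 higher and 3 lower, with sums of 64.6 to 84.7 against 60.1 to 78.4. Gad1 differed by 0.61 (adjusted p 0.0593, limma paired) and Dcx by -0.38. For fibroblasts 6 of 13 were well detected, 3 higher and 3 lower, with sums of 33.0 to 34.7 against 31.8 to 43.1. Col1a1 was called at -0.78, Thy1 went the other way at 0.76 without a call, and Dcn, Lum and Pdgfrb were dim. Cfap126 is also an ependymal marker, and of that list only Cfap126 and Rsph1 were well detected, while Foxj1 and Tekt1 were dim. Endothelial (6 of 12 well detected), pericyte (5 of 12) and Schwann cell markers (9 of 11) had no call. The part of such cells in these differences was not tested, and in sorted bulk RNA a smaller share of cells with a transcript and less transcript per cell cannot be told apart.

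The NG2/A2B5 arrays, which did not enter the difference, gave the level of the called genes in cells with both antigens. Their mean lay between those of the O4 and NG2 cells for 57 of the 72 genes called higher (79.2%) and 43 of the 48 called lower (89.6%), beside 46.2% of all well-detected genes. It was nearer to the O4 mean for 52 of the 72 (72.2%) and for 27 of the 48 (56.2%), beside 51.5% of all well-detected genes. Igfbpl1 lay near the NG2 cells there, at 0.28, and Hsp90ab1 did too, at 4.49, while Fxyd1 lay at 3.15, above the O4 mean. A gene chosen for a difference between the outer populations is more often between them in another population, so these shares are a description.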

How the data were processed

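Total RNA of frozen sorted cells was amplified from 10 ng by 2 rounds of in vitro transcription and labelled with biotin, per the labels' protocols. The deposited values are linear intensities already scaled by the authors, who used spikes for normalization per the labels' protocols; no scanner or software is named in the labels. Missing values (-9999) were dropped, values at or below 0 were set to the lowest positive value of the array, and log2 was taken. Of 35129 probes 16865 carried 1 gene symbol, 165 several and 18099 none; several-symbol and unnamed probes were left out, and each gene took its brightest probe, giving 12167 genes.

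All 9 arrays entered 2 limma fits (limma 3.58.1, R 4.3.3, statmod 1.5.0; trend and robust variance), without and with the numeral as a block, and p-values were Benjamini-Hochberg adjusted. The numerals were taken as pairing the arrays: deviations of same-numeral arrays correlated at 0.266 to 0.561, those of other arrays at -0.435 to 0.011 (8917 genes). The median residual SD of well-detected genes was 0.267 unpaired and 0.199 paired. On simulated data of 12025 genes the paired fit recovered 63.5% of 2-fold changes with 7 false calls, and the unpaired fit 0%. Those data were built with numeral effects and the spread of the paired fit, which favours that fit by construction. They cannot tell whether the pairing holds for these arrays. The number of arrays limits precision.

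The leading genes were the 15 largest called differences in each direction among well-detected genes with 1 sign in all 3 pairs; others were named from 60 gene lists. The members and lists were chosen with earlier results of these data known. Promoters were matched by gene symbol.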

Additional observations from a re-analysis of the deposited data

How the results depend on the processing

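Each alternative below changes 1 choice unless 2 are named. Unpaired, the count of called genes was 0, 1 with plain variance estimates, 1 with the mean of a gene's probes, 2 with the numeral as a random block and 124 with the numeral as a fixed replicate block; without single arrays it ran from 0 to 4, the 4 arising without NG2-I. Paired, the 124 calls became 0 with plain variance estimates, 191 with quantile normalization, 359 over well-detected genes alone, 1 with a floor at the 25th percentile, 282 with 0.5 added before log2, 6 with the mean of a gene's probes, 200 with the 6 arrays compared alone and 0 with no replicate block. Without single arrays the count ran from 5 to 61, and without a numeral from 2 to 85. Of the 30 leading genes, 0 were called with plain variance estimates, 1 with the 25th percentile floor, 3 with the mean of a gene's probes and 0 with no replicate block, and 3 to 15 without single arrays and 1 to 21 without a numeral. Of 3 pairs of choices added after seeing the data, each over well-detected genes alone, plain variance estimates called 10 (8 of the 30), the 25th percentile floor 382 and the mean of a gene's probes 9 (5 of the 30). The cause of these shifts was not tested. Among single genes the sign turned with the mean of a gene's probes, over all or well-detected genes, for Arrdc4 (0.16), Sox2 (0.48), Mag (-0.0189), Olig1 (-0.12), Kdm2a (2.69) and Rbfox1 (0.0000). In Arrdc4 and Kdm2a a dim probe entered that mean, with pair differences of up to 9.20 and 9.71. With quantile normalization the sign turned for St8sia1 (0.0292) and Bcas1 (-0.18). Leaving out arrays or numerals turned it for St8sia1 (range -0.34 to 0.18), Flnc (-0.0034 to 0.13), Bcas1 (-0.0400 to 0.10), Sox10 (-0.13 to 0.0407), Olig1 (-0.0505 to 0.25) and Bmp4 (-4.48 to 0.30). With the 25th percentile floor, over all or well-detected genes, Bmp4 differed by 0.21. Of 183 list medians under other settings, 12 shifted by more than the SD of the list's 3 pair medians.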
